A study of Triticum aestivum with 18 samples.

Results

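The genes described here form a block on chromosome 1B of hexaploid wheat, labelled as its short arm, in which read counts were low in the genotype Sadash. The members were the high-confidence genes from TraesCS1B02G000800 to TraesCS1B02G150500 in identifier order that reached 1 CPM (a gene's count scaled to a common library total) in at least 1 of 18 libraries. Of 1481 high-confidence genes in this interval, 728 passed and are the members, out of 62692 genes that passed in the whole genome. Another 753 genes of the interval stayed below the filter, and 400 of these had no count in any library. At the filter's edge, TraesCS1B02G116000 was the weakest member with a highest value of 1.00 CPM, and TraesCS1B02G052600 was the strongest gene left out with 0.979 CPM. The interval had been chosen because its genes had lower counts in Sadash in these same libraries, so every difference between the genotypes within the block is a description and carries no test.

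RNA was sequenced from microspore cultures of the spring wheat genotypes Nanda, which forms embryos readily in culture, and Sadash, which responds poorly. Plants of both were grown in a growth chamber, their spikes were held in the cold before microspores were isolated, and RNA came from pooled microspores or the structures they had formed. The groups were Nanda on Day 0 (microspores), Day 7 (proembryos) and Day 21 (embryo-like structures), and Sadash on the same days, with 3 biological replicates each. Nothing in the labels states whether replicates came from separate plants or cultures, so the p-values measure the spread between these libraries.

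Microspore embryogenesis is a switch in which an immature pollen grain, stressed by cold or starvation, leaves pollen development and divides to form a haploid embryo. Bread wheat carries the related subgenomes A, B and D, so most genes on chromosome 1B have a near-identical copy, or homoeolog, on 1A and on 1D. The short arm of 1B is known for clustered genes of seed storage proteins and of disease resistance, and for the nucleolus organizer. A gene whose B copy is weak may still be served by the A and D copies, so both sides were measured. Reads were placed on a single reference genome, and a low count can stem from fewer transcripts or from fewer reads placed on the reference gene. These cannot be told apart in these files, nor can fewer cells of a type be told apart from less RNA per cell.

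The libraries held between 6675262 and 27463269 high-confidence counts, so 3 counts corresponded to between 0.113 and 0.428 CPM. A BABY BOOM type gene, an embryo regulator (TraesCS3D02G389100), lay at or below 0.0727 CPM in all Day 0 libraries of both genotypes and averaged 38.2 CPM in Nanda and 62.7 CPM in Sadash on Day 7. A gene annotated as a pollen-specific extensin (TraesCS5D02G376200) averaged 0.680, 83.8 and 0 CPM in Nanda on Day 0, Day 7 and Day 21, and 0.148, 117 and 0.0477 CPM in Sadash, so it was nearly absent from the Day 0 microspores. The GAMYB type gene TraesCS7B02G278400, also chosen as a pollen marker, was instead highest on Day 0. It averaged 48.5, 4.33 and 0.0394 CPM in Nanda and 22.5, 8.71 and 0.199 CPM in Sadash on these days. An RKD type gene chosen as an embryo marker (TraesCS6A02G307500) averaged 0, 4.98 and 0.184 CPM in Nanda and 0, 3.23 and 0.224 CPM in Sadash. The vicilin type storage protein genes TraesCS4A02G296000 and TraesCS5D02G440000 were high on Day 21 in both genotypes, and Nanda Day 7 replicate 3 also held 13.8 and 15.3 CPM, which stands apart from the other Nanda Day 7 libraries.

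The block supplied a nearly constant share of counts in Nanda. Its members took 1.27% ± 0.00882, 1.29% ± 0.0102 and 1.26% ± 0.0104 of all high-confidence counts in Nanda on Day 0, Day 7 and Day 21 (SD, n = 3 each). In Sadash the shares were 0.256% ± 0.00405, 0.228% ± 0.00901 and 0.231% ± 0.0178 on the same days (SD, n = 3 each). No Sadash library came near any Nanda library, and within each genotype the stages differed little.

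**Figure D1:**
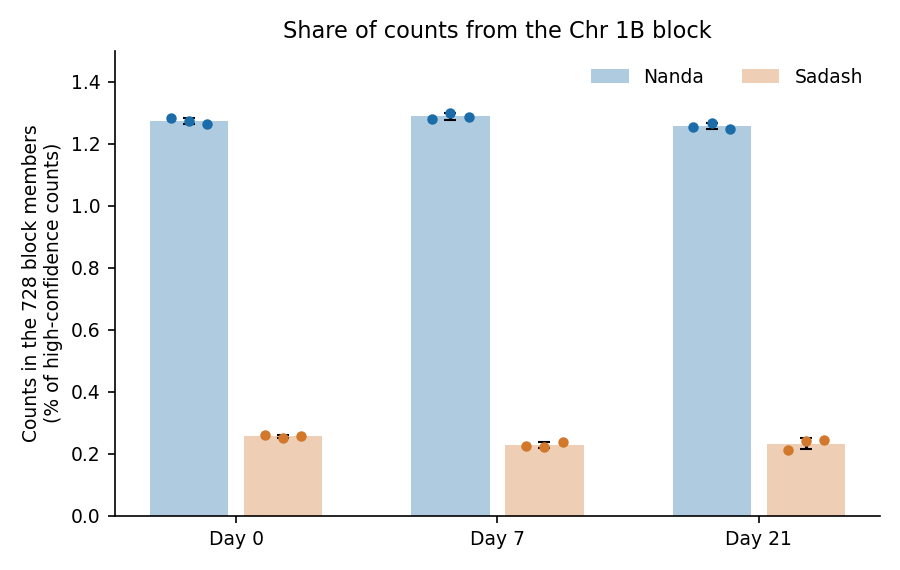
Share of high-confidence counts that fell on the 728 block members, in percent, by day and genotype. Bars show the mean of 3 libraries, error bars the SD and points the libraries; the Nanda bars stand between 1.26% and 1.29% and the Sadash bars between 0.228% and 0.256%.

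The residual counts of Sadash were spread unevenly over the members. Of the 728 members, 715 reached 1 CPM in a Nanda library and 370 in a Sadash library, 358 of them in Nanda only and 13 in Sadash only. Between 664 and 682 members had a count in any one Nanda library, against 378 to 489 in a Sadash library. A count was present in all 9 libraries for 575 members in Nanda and 269 in Sadash. Sadash had no count in any library for 117 members, or 16.1%, where 0.625% of all tested genes had none. Nanda had none for 4 members. The median ratio of the Sadash mean to the Nanda mean was 0.0748, with quartiles of 0.00828 and 0.225, against a median of 0.999 for the rest of chromosome 1B. The ratio was higher among well expressed members, with a median of 0.108 for the 262 members at 10 CPM or more in Nanda, 0.0577 for the 336 between 1 and 10 CPM and 0.0155 for the 130 below 1 CPM. The last group lies close to what 1 or a few counts can resolve.

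Calls required a change of 1 or more on the log2 scale, in either direction, with an adjusted p below 0.01. By these, 512, 507 and 557 members were higher in Nanda on Day 0, Day 7 and Day 21, where 5.44%, 6.78% and 6.96% of all tested genes were. Only 9, 15 and 15 members were lower in Nanda, where 5.12%, 6.03% and 5.60% of all tested genes were. Nothing is read from these counts, since the interval was chosen on them. At all 3 stages 403 members were higher in Nanda, where 1.39% of all tested genes were, and every Nanda library exceeded every Sadash library for 394 members, where this held for 1.53% of all tested genes.

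**Figure D2:**
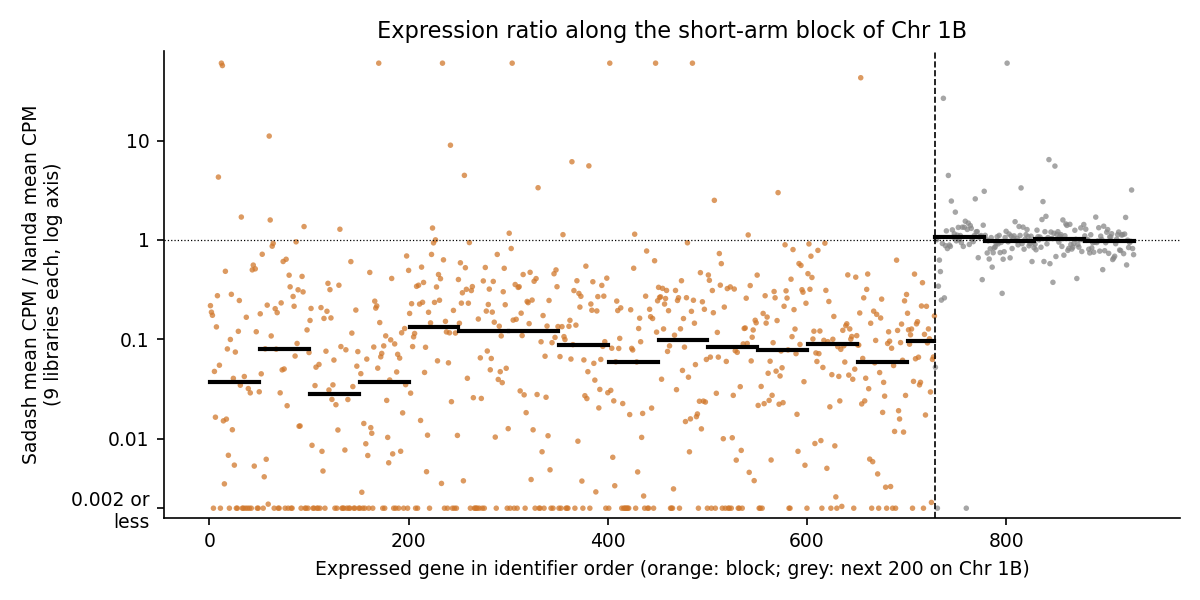
Ratio of the Sadash mean to the Nanda mean in CPM (log axis, 9 libraries each) for every expressed gene in identifier order, block members in orange and the next 200 expressed genes of chromosome 1B in grey. Values of 0.002 or less are drawn at the bottom, genes without a Nanda count or with a ratio above 60 at the top, the dashed line marks the end of the block, and black lines give medians of 50 genes, which lie between 0.0279 and 0.132 in the block and between 0.968 and 1.08 after it.

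Along the block the low ratio showed no gradient. In 15 consecutive windows of 50 members (28 in the last), the median ratio ran from 0.0279 in window 3 to 0.132 in window 5, and the ratio of summed CPM from 0.0687 to 0.273. Each window held between 0 and 9 members at 0.5 or more of the Nanda level, with 9 in window 2 and 0 in the last. On the side of higher identifiers the block ended in a mixed stretch of genes, and that end had been chosen with these values known. The last 10 members had a median ratio of 0.0792 and none at 0.5 or more. The next 10 expressed genes, TraesCS1B02G150800 to TraesCS1B02G152100, had a median of 0.411, ranging from 0 to 26.6, and 4 of them lay at 0.5 or more. All 10 of the following genes did, with a median of 1.11.

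The genes at this edge alternated. TraesCS1B02G150500, the last member, averaged 61.8, 68.6 and 139 CPM in Nanda on Day 0, Day 7 and Day 21, and 20.4, 17.4 and 8.65 CPM in Sadash. TraesCS1B02G150800, the first gene outside, averaged 6.65, 12.0 and 14.2 CPM in Nanda against 0.703, 0.615 and 0.405 CPM in Sadash, so the low ratio went on past the last member. TraesCS1B02G150900 lay at a ratio of 1.00, and TraesCS1B02G151200 had no count in Sadash at a Nanda mean of 0.613 CPM. TraesCS1B02G152000 ran the other way, with a mean of 0.787 CPM in Nanda and 20.9 CPM in Sadash. TraesCS1B02G152200, the 11th gene outside, averaged 53.9 CPM in Nanda and 47.2 CPM in Sadash. These flanking genes beyond the first were picked after their values were seen. On the other side a single expressed gene, TraesCS1B02G000600, preceded the block, with a mean of 4.47 CPM in Nanda and 1.03 CPM in Sadash. TraesCS1B02G000800, the first member, averaged 10.6 CPM in Nanda and 2.31 CPM in Sadash, and in Nanda it measured 6.33, 6.18 and 8.34 CPM on Day 7 against 16.1, 20.4 and 18.1 CPM on Day 0 (log2 fold change -1.39, adjusted p = 3.72e-05 by edgeR's quasi-likelihood test, as for all adjusted p below). Low-confidence gene models, which the members leave out, were also low in the first of 17 windows along the chromosome and near the Nanda level later. Their medians were 0.0354, 0.0167, 0.0110, 0 and 0 in the first 5, a fall along the block that the members did not show. The genes at 0.5 or more in these windows of 50 numbered 16, 11, 9, 4 and 2. The median was 0.537 in the sixth window and between 0.878 and 1.17 from the seventh on.

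Within Nanda, where the block was well covered, its genes took part in both developmental transitions. From Day 0 to Day 7 (ND7_D0), 124 members rose and 83 fell, or 17.0% and 11.4%, where 18.5% of all tested genes rose and 15.2% fell (33.7% in either direction). From Day 7 to Day 21 (ND21_D7), 109 members rose and 125 fell, or 15.0% and 17.2%, where 15.8% of all tested genes rose and 18.3% fell (34.1% in either direction). The rest of chromosome 1B, with 2019 genes, had 425 that rose and 286 that fell in the first transition and 301 and 415 in the second. The shares of members called thus lay near, and mostly slightly below, those of all genes. Median log2 fold changes over the members were 0.01 in ND7_D0 and 0.00 in ND21_D7, against 0.00 and -0.05 over all tested genes.

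Read over both transitions, 377 members had no call in either, or 51.8% against 46.2% of all tested genes. A further 73 rose only by Day 21 (10.0% against 10.3% of all tested genes), 71 rose by Day 7 without a later call (9.75% against 10.5%), and 71 fell only by Day 21 (9.75% against 9.76%). Another 46 fell by Day 7 without a later call (6.32% against 9.21%), and 29 rose and then fell (3.98% against 4.79%). A smaller 25 fell in both transitions (3.43% against 3.77%), 24 rose in both (3.30% against 3.26%), and 12 fell and then rose (1.65% against 2.20%). Most of these shares lay near those of all genes. Of the 724 members with a Nanda count, 252 had their highest mean on Day 0, 176 on Day 7 and 296 on Day 21, which is 34.8%, 24.3% and 40.9%, against 37.3%, 26.3% and 36.4% of all tested genes. By position, the share of members called ranged from 20.0% to 44.0% in ND7_D0 and from 14.3% to 54.0% in ND21_D7. Window 13, from TraesCS1B02G132300 to TraesCS1B02G139100, was highest in both. Windows 12, 14 and 15, picked after their values were seen, had 11, 11 and 8 members that rose by Day 7 and 1, 1 and 0 that fell. Window 13, between them, had 14 that rose and 8 that fell. In windows 12, 14 and 15, 24.0%, 24.0% and 28.6% of members were called, where 33.7% of all tested genes were (18.5% rose and 15.2% fell).

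**Figure D3:**
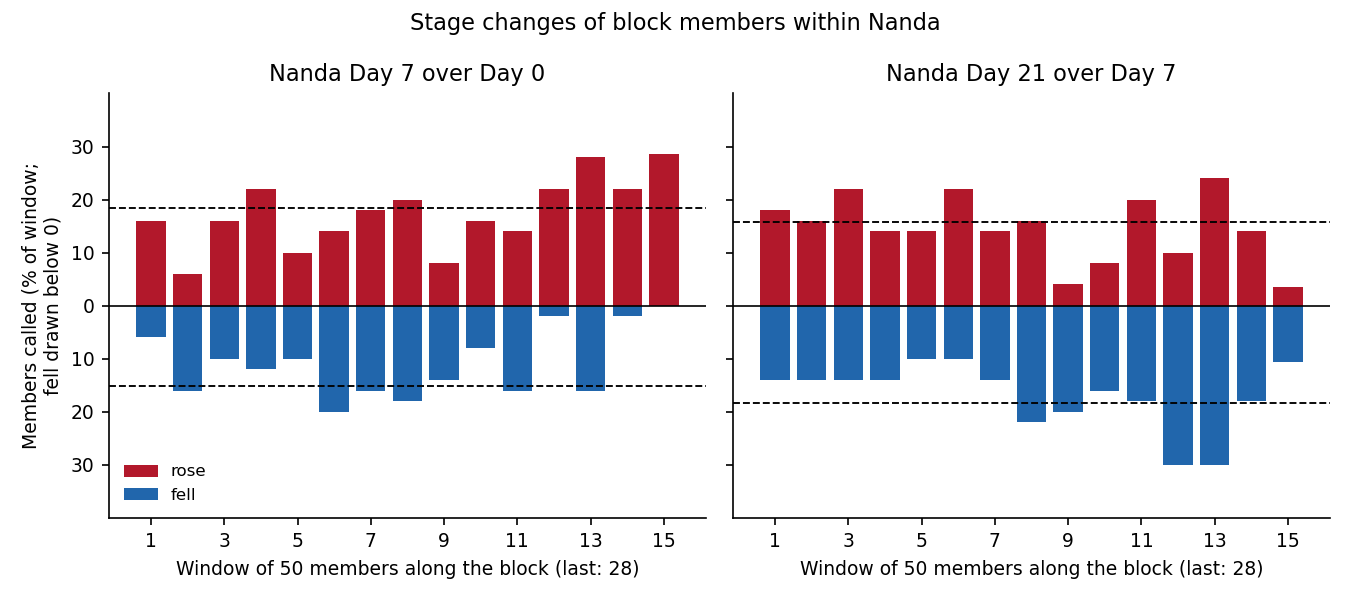
Percent of members in each window of 50 (28 in the last) that rose (red) or fell (blue, drawn below 0) within Nanda, Day 7 over Day 0 on the left and Day 21 over Day 7 on the right. Dashed lines give the percent of all 62692 tested genes that rose or fell; window 13 had the most calls, 44.0% on the left and 54.0% on the right.

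Members that rose by Day 7 in Nanda included enzymes of detoxification, a transporter and wall proteins. TraesCS1B02G113700, a phi-class glutathione S-transferase, an enzyme that couples glutathione to reactive compounds, measured 48.6, 64.7 and 61.8 CPM on Day 7 against 0, 0.0501 and 0.244 CPM on Day 0. It rose by 9.25 on the log2 scale (SE 0.57, adjusted p = 1.92e-09) and then fell by 2.15 to 20.1, 10.2 and 9.22 CPM on Day 21 (adjusted p = 4.47e-05). In Sadash no library exceeded 0.794 CPM. The level thus peaked on Day 7 in Nanda, with no overlap between stages. The A copy of this gene averaged 100 CPM in Nanda and 35.9 CPM in Sadash on Day 7, and the D copy 32.4 and 11.3 CPM, so the homoeologs were present on Day 7 in both genotypes.

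TraesCS1B02G099000, an ABCB transporter, a family of membrane pumps that includes auxin carriers, measured 39.3, 43.1 and 65.1 CPM in Nanda on Day 7 against 0.291, 0.25 and 0.488 CPM on Day 0. It rose by 7.19 on the log2 scale (SE 0.44, adjusted p = 4.85e-10) and reached 103, 110 and 116 CPM on Day 21. The second step, 1.16, was called with all libraries (adjusted p = 0.00171) but not without Nanda Day 7 replicate 1 or 2 (adjusted p up to 0.0129). In Sadash the gene rose by 2.94 in the same direction, to 6.51, 2.19 and 7.30 CPM on Day 7 against 0.680, 0.999 and 0.343 CPM on Day 0 (adjusted p = 2.31e-05).

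Among genes with wall-related annotations, TraesCS1B02G076100, annotated like a wall-associated receptor kinase of Arabidopsis, measured 5.88, 9.03 and 15.0 CPM in Nanda on Day 7 and had no count on Day 0, at least 48.9-fold higher against a floor of 3 counts per library (adjusted p = 1.39e-05). TraesCS1B02G143500, annotated like a leucine-rich repeat extensin, a structural wall protein, had no count in Nanda on Day 0, measured 2.05, 1.43 and 2.36 CPM on Day 7 (at least 9.54-fold higher) and rose by a further 2.55 on the log2 scale to 9.20, 14.1 and 10.9 CPM on Day 21 (adjusted p = 0.000164). TraesCS1B02G136200, annotated to cellulose biosynthesis, measured 38.0, 46.0 and 57.0 CPM in Nanda on Day 7 against 12.2, 8.41 and 10.2 CPM on Day 0 (log2 fold change 2.20, adjusted p = 4.88e-06). All of these were low on Day 0 and high afterwards, without overlap. TraesCS1B02G136200 reached 105, 104 and 104 CPM on Day 21, a further step of 1.15 that was called with all libraries (adjusted p = 0.00153) and not without Nanda Day 7 replicate 1 (adjusted p = 0.0116).

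A pair of genes with a cellulase domain, TraesCS1B02G043200 and TraesCS1B02G016400, appeared on Day 7. The first measured 6.07, 10.1 and 11.6 CPM in Nanda on Day 7 against 0, 0 and 0.0813 CPM on Day 0 (log2 fold change 8.25, SE 1.11, adjusted p = 2.01e-05). The second measured 0.895, 2.77 and 3.90 CPM on Day 7 and had no count on Day 0, at least 12.4-fold higher (adjusted p = 0.00024). On Day 21 both were lower again in Nanda, at 0.712 to 2.18 and at 0.127 to 0.534 CPM, with log2 fold changes of -2.77 (adjusted p = 0.00317) and -2.93 (adjusted p = 0.00908). The fall of TraesCS1B02G043200 was not called without Nanda Day 7 replicate 2 or 3 or Nanda Day 21 replicate 1 or 3 (adjusted p up to 0.0203). That of TraesCS1B02G016400 was not called without any of these, nor without Nanda Day 0 replicate 3, Nanda Day 21 replicate 2 or Sadash Day 0 replicate 1 or 3 (adjusted p up to 0.0412).

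The members with the largest falls by Day 7 have no description in the sources used here. TraesCS1B02G098900 measured at most 0.128 CPM in Nanda on Day 7 against 35.1, 36.8 and 37.0 CPM on Day 0 (log2 fold change -9.26, SE 0.44, adjusted p = 6.31e-10). In Sadash it measured 1.03, 1.51 and 0.983 CPM on Day 7 against 12.9, 9.07 and 12.6 CPM on Day 0 (log2 fold change -3.28, SE 0.29, adjusted p = 4.92e-07). The direction was shared, and on Day 7 every Sadash library lay above every Nanda library. TraesCS1B02G030400 measured 1.28, 0.475 and 0.635 CPM in Nanda on Day 7 against 184, 115 and 115 CPM on Day 0 (log2 fold change -7.36, adjusted p = 2.86e-09). In Sadash it measured 0.342, 0.226 and 0 CPM on Day 7 against 69.9, 32.1 and 81.4 CPM on Day 0 (log2 fold change -8.35, adjusted p = 1.04e-08). TraesCS1B02G122200 measured at most 0.128 CPM in Nanda on Day 7 against 12.9, 17.2 and 16.1 CPM on Day 0 (log2 fold change -8.03, adjusted p = 1.92e-07), and no Sadash library exceeded 0.214 CPM.

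**Figure D4:**
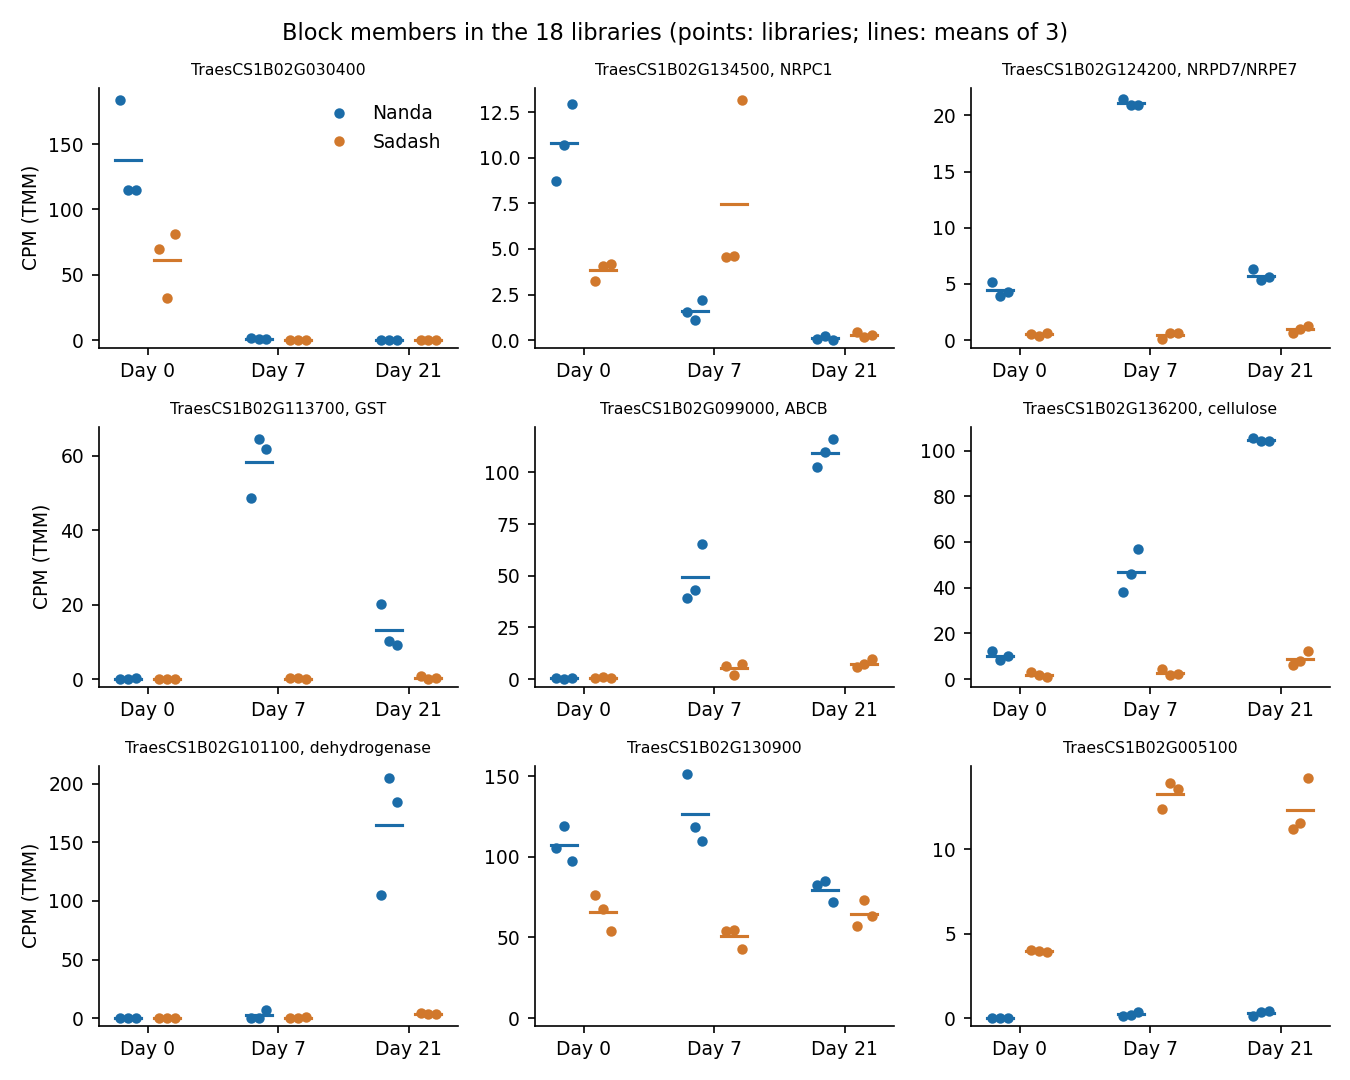
TMM-scaled CPM of 9 block members in all 18 libraries (linear axes that differ between panels), Nanda in blue left of Sadash in orange on each day, with lines at the means of 3. TraesCS1B02G030400 is high on Day 0, TraesCS1B02G124200 and TraesCS1B02G113700 peak on Day 7 in Nanda, TraesCS1B02G101100 is high on Day 21, and in the panel of TraesCS1B02G005100 the Sadash points lie above those of Nanda.

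Late in culture a different set appeared. TraesCS1B02G101100, annotated like a glucose and ribitol dehydrogenase of rice, measured 105, 205 and 185 CPM in Nanda on Day 21 against 0, 0 and 6.89 CPM on Day 7 (log2 fold change 6.30, SE 0.90, adjusted p = 3.57e-05). TraesCS1B02G042200, a type-2 metallothionein, a small cysteine-rich metal-binding protein, measured 137, 207 and 159 CPM on Day 21 against 0, 0.158 and 12.9 CPM on Day 7 (log2 fold change 5.37, SE 0.93, adjusted p = 0.000131). Both were high in all Day 21 libraries, and the Day 7 counts came almost wholly from replicate 3, the library with vicilin counts. The rise of the metallothionein gene by Day 7, a log2 fold change of 7.08 (adjusted p = 0.00921), rested on that library and was 1.40 without it (adjusted p = 0.691). In Sadash the same genes measured 4.72, 3.15 and 3.26 CPM and 4.38, 4.00 and 2.84 CPM on Day 21, far below Nanda.

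TraesCS1B02G018100 measured 9.32, 10.8 and 10.7 CPM in Nanda on Day 21 against 0, 0 and 0.544 CPM on Day 7 (log2 fold change 5.94, adjusted p = 0.000143), and no Sadash library had a count. TraesCS1B02G124600 measured 10.7, 13.8 and 13.7 CPM on Day 21 against 0, 0 and 0.816 CPM on Day 7 (log2 fold change 5.68, adjusted p = 3.02e-05). Neither has a description in the sources used here. The Day 7 counts of all 4 late genes were at or near 0 outside Nanda Day 7 replicate 3, so the folds depend on that library. Without it the fitted log2 fold changes were 14.26 for TraesCS1B02G101100, 11.05 for TraesCS1B02G042200, 10.26 for TraesCS1B02G018100 and 10.57 for TraesCS1B02G124600, each still called. In that fit TraesCS1B02G042200 kept at most 0.158 CPM on Day 7 and the other genes had no Day 7 count. The sizes of these folds are thus set by the fit and are not measured ratios. DESeq2 did not call the late rises of TraesCS1B02G018100, TraesCS1B02G042200 and TraesCS1B02G101100.

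Other members vanished by Day 21. TraesCS1B02G057400 measured 20.2, 19.6 and 16.7 CPM in Nanda on Day 7 against 0.291, 0.200 and 0.0813 CPM on Day 0 (log2 fold change 6.54, adjusted p = 5.89e-07), and had no count on Day 21, at least 104-fold lower (adjusted p = 2.03e-07). TraesCS1B02G046400 measured 13.9, 16.2 and 12.3 CPM on Day 7 and had no count on Day 21, at least 77.9-fold lower (adjusted p = 6.6e-06). TraesCS1B02G124400 measured 11.3, 11.4 and 8.25 CPM on Day 7 and at most 0.0636 CPM on Day 21 (log2 fold change -8.49, adjusted p = 1.52e-08). The first of these was a Day 7 transcript, while TraesCS1B02G124400 was already at 18.2, 15.5 and 15.9 CPM on Day 0.

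Groups of members with a shared annotation were taken from the study's own lists, which the study had chosen on these libraries and which are partly shortened in the copies used, so their directions are not independent evidence. The percentages called over all tested genes given above are the background for each in Nanda. Those for Sadash are given with its counts. Of the 4 members for subunits of RNA polymerases III, IV and V, 2 rose and 2 fell in ND7_D0 and 3 fell in ND21_D7. RNA polymerase III makes transfer RNA and other small RNAs, and the plant polymerases IV and V serve silencing by small RNAs. TraesCS1B02G124200 and TraesCS1B02G124300, both annotated as the seventh subunit of polymerases IV and V, peaked on Day 7. The first measured 21.4, 20.9 and 21.0 CPM on Day 7 against 5.16, 3.95 and 4.31 CPM on Day 0 (log2 fold change 2.24, adjusted p = 2.94e-06) and 6.35, 5.30 and 5.60 CPM on Day 21 (-1.87 against Day 7, adjusted p = 1.81e-05). The second measured 7.61, 5.55 and 7.35 CPM on Day 7 against 0.363, 0.551 and 0.569 CPM on Day 0 (3.76, adjusted p = 2.63e-05) and at most 0.177 CPM on Day 21.

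The polymerase III subunits went down. TraesCS1B02G134500, annotated as the largest subunit NRPC1, measured 1.53, 1.11 and 2.18 CPM in Nanda on Day 7 against 8.72, 10.7 and 12.9 CPM on Day 0 (log2 fold change -2.75, adjusted p = 4.34e-05) and at most 0.236 CPM on Day 21. In Sadash it measured 4.54, 4.60 and 13.2 CPM on Day 7 against 3.26, 4.07 and 4.2 CPM on Day 0, which was not called (0.96, adjusted p = 0.0592), and at most 0.454 CPM on Day 21 (-4.40 against Day 7, adjusted p = 1.57e-06). Every Sadash library thus exceeded every Nanda library on Day 7, while on Day 0 Nanda was higher. TraesCS1B02G093900, annotated as RPC82, measured 3.07, 3.09 and 3.45 CPM in Nanda on Day 7 against 9.01, 10.4 and 11.9 CPM on Day 0 (-1.70, adjusted p = 0.000254) and had no count in any Sadash library.

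Of 6 members for DNA-binding regulators, 4 rose and 1 fell in ND7_D0, and 2 fell in ND21_D7. TraesCS1B02G095600, annotated as a DNA-binding protein phosphatase, measured 46.0, 47.1 and 57.2 CPM in Nanda on Day 7 against 4.22, 5.21 and 4.72 CPM on Day 0 (log2 fold change 3.40, adjusted p = 2.2e-08). TraesCS1B02G100400, a bHLH transcription factor, measured 6.59, 4.28 and 5.90 CPM on Day 7 against 0, 0.0501 and 0.325 CPM on Day 0 (5.54, adjusted p = 2.78e-05), and TraesCS1B02G088500, a trihelix factor, measured 16.4, 15.8 and 18.3 CPM on Day 7 against 3.78, 5.26 and 3.74 CPM on Day 0 (1.97, adjusted p = 3.61e-05). These rises had no overlap between stages. The GATA factor TraesCS1B02G126600 also passed (1.31, adjusted p = 0.00893), a call that did not hold without any 1 of the 9 Nanda libraries or without Sadash Day 0 replicate 3 (adjusted p up to 0.0535). TraesCS1B02G147800, a MYB3R protein of the family that acts in the cell cycle, measured 6.65, 7.69 and 7.17 CPM on Day 7 against 2.04, 2.10 and 3.17 CPM on Day 0 and missed the limit (1.56, adjusted p = 0.0131). TraesCS1B02G135500, an ALBA protein that reads RNA-DNA hybrids, measured 0.512, 0.317 and 0.363 CPM in Nanda on Day 7 against 5.45, 6.11 and 7.15 CPM on Day 0 (-3.93, adjusted p = 1.93e-05) and had no count on Day 21.

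The 4 members annotated to phenylalanine breakdown and cinnamate synthesis, the entry to phenylpropanoids and lignin, were late genes. In ND21_D7 3 of them rose and none fell, and none was called in ND7_D0 or in Sadash. TraesCS1B02G122800 measured 56.1, 58.6 and 36.6 CPM in Nanda on Day 21 against 0.767, 0 and 3.36 CPM on Day 7 (log2 fold change 5.27, SE 0.63, adjusted p = 3.26e-06), and in Sadash at most 0.429 CPM in any library. TraesCS1B02G048300 measured 5.28, 3.83 and 3.12 CPM on Day 21 against 0.192, 0 and 0.363 CPM on Day 7 (4.44, adjusted p = 0.000115). The call of its neighbour TraesCS1B02G048400 (3.25, adjusted p = 0.00938) did not hold without any 1 of the Nanda Day 7 or Day 21 libraries, Nanda Day 0 replicate 1 or 2 or Sadash Day 21 replicate 2, with adjusted p up to 0.0388. TraesCS1B02G048500, at 1.90, 1.71 and 1.02 CPM on Day 21 against 0, 0.792 and 0.544 CPM on Day 7, was not called (adjusted p = 0.102). These 3 neighbours carry near-identical annotations, and reads of similar copies may have been divided between them.

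Of the 4 actin filament members 3 rose and 1 fell in ND7_D0, and 2 rose and 2 fell in ND21_D7. The cellulase-domain pair above shares this list with a pair annotated to actin organization, which moved in opposite ways early and together later. TraesCS1B02G122300 measured 0.703, 1.90 and 2.09 CPM in Nanda on Day 7 against 0.145, 0.0501 and 0.163 CPM on Day 0 (log2 fold change 3.70, adjusted p = 4.74e-05) and 21.5, 22.1 and 20.9 CPM on Day 21 (3.81 against Day 7, adjusted p = 2.61e-07). In Sadash it rose late only, to 1.32, 1.29 and 2.05 CPM on Day 21 against at most 0.171 CPM on Day 7 (4.21, adjusted p = 2.9e-05). TraesCS1B02G059400 measured 0.128, 0.317 and 0.272 CPM in Nanda on Day 7 against 5.38, 5.76 and 5.20 CPM on Day 0 (-4.50, adjusted p = 4.27e-06) and 3.20, 3.42 and 2.80 CPM on Day 21 (3.71 against Day 7, adjusted p = 3.02e-05). In Sadash it had no count before Day 21, when it measured 1.63, 0.572 and 0.604 CPM.

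Of 4 members annotated to hormone signalling, 3 rose in ND7_D0 and 1 fell in ND21_D7. TraesCS1B02G138100 measured 28.6, 25.4 and 29.7 CPM in Nanda on Day 7 against 0.363, 1.20 and 1.06 CPM on Day 0 (log2 fold change 4.95, adjusted p = 3.83e-07) and stayed at 25.2, 24.9 and 25.4 CPM on Day 21. TraesCS1B02G142300, annotated to brassinosteroid signalling, measured 42.7, 51.9 and 52.4 CPM on Day 7 against 14.5, 8.66 and 9.02 CPM on Day 0 (2.19, adjusted p = 3.09e-05). TraesCS1B02G145800, annotated to the regulation of phosphatase activity, measured 36.3, 48.3 and 41.9 CPM on Day 7 against 13.4, 15.0 and 15.2 CPM on Day 0 (1.54, adjusted p = 5.66e-06) and 11.3, 11.6 and 12.0 CPM on Day 21 (-1.86, adjusted p = 7.68e-07). In Sadash TraesCS1B02G142300 rose late as well, to 10.9, 12.7 and 15.0 CPM on Day 21 against 4.02, 1.36 and 4.64 CPM on Day 7 (1.94, adjusted p = 0.000287).

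TraesCS1B02G085100, annotated to amino acid breakdown, was the clearest of the 4 amino acid members, of which 1 rose in ND7_D0 and 2 fell in ND21_D7. It measured 77.1, 106 and 94.1 CPM in Nanda on Day 7 against 5.81, 5.31 and 6.67 CPM on Day 0 (log2 fold change 3.96, adjusted p = 2.52e-08) and 13.4, 10.4 and 12.5 CPM on Day 21 (-2.93, adjusted p = 5.22e-07). In Sadash it rose as well, to 19.0, 6.79 and 22.9 CPM on Day 7 against 2.45, 4.28 and 2.06 CPM on Day 0 (2.46, adjusted p = 1.56e-05). Of the 3 glutathione members 2 rose in ND7_D0 and both of these fell in ND21_D7. TraesCS1B02G059100 measured 147, 140 and 124 CPM on Day 7 against 65.3, 67.1 and 64.4 CPM on Day 0. Its log2 fold change of 1.06 (adjusted p = 1.89e-07) dropped just under 1 without Nanda Day 0 replicate 3 or Sadash Day 0 replicate 1 or 3 (lowest 0.94). It then fell by 1.46 (adjusted p = 5.61e-09).

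Of 3 members in the replication and DNA breakdown list 2 rose in ND7_D0. TraesCS1B02G146200, annotated to the start of DNA replication and the unwinding of DNA, measured 150, 138 and 126 CPM in Nanda on Day 7 against 66.6, 44.7 and 47.8 CPM on Day 0 (log2 fold change 1.38, adjusted p = 1.56e-06). In Sadash the rise came later, with 68.5, 51.3 and 66.9 CPM on Day 21 against 18.5, 24.7 and 17.6 CPM on Day 7 (1.62, adjusted p = 3.32e-07) and no call before that (-0.30, adjusted p = 0.155). Its A and D copies averaged 203 and 192 CPM in Nanda and 176 and 173 CPM in Sadash on Day 7, and 260 and 197 CPM in Nanda and 403 and 368 CPM in Sadash on Day 21. The other member that rose, TraesCS1B02G122400, annotated to DNA breakdown, measured 5.05, 2.77 and 3.81 CPM on Day 7 against 1.31, 0.801 and 0.732 CPM on Day 0 (2.03, adjusted p = 0.000894) and had no count in Sadash.

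Of the 6 translation members none was called in ND7_D0 and 1 fell in ND21_D7. That one, TraesCS1B02G127200, measured 60.8, 47.6 and 42.7 CPM in Nanda on Day 21 against 114, 99.8 and 88.6 CPM on Day 7 (log2 fold change -1.0, adjusted p = 0.00263), at the limit of 1, and was not called without Nanda Day 0 replicate 3, Nanda Day 7 replicate 1, Nanda Day 21 replicate 2 or 3 or Sadash Day 0 replicate 1 or 3 (adjusted p up to 0.0187). TraesCS1B02G146100 measured 188, 204 and 193 CPM on Day 0, 150, 141 and 112 CPM on Day 7 and 76.1, 74.6 and 63.6 CPM on Day 21, with log2 fold changes of -0.53 and -0.91 that stayed under the limit of 1. In Sadash 3 of the 6 fell in SD7_D0 and 2 rose in SD21_D7, where 12.0% of all tested genes fell and 16.8% rose in these steps. The Sadash counts of these members were low. TraesCS1B02G146100, which fell, averaged 6.26, 1.61 and 3.05 CPM in Sadash on Day 0, Day 7 and Day 21. Its A copy averaged 159, 80.6 and 138 CPM there and its D copy 161, 82.5 and 138 CPM. Whether reads were shared between the copies was not tested. TraesCS1B02G031500 measured 0.342, 0.377 and 0.773 CPM in Sadash on Day 7 against 3.67, 2.43 and 3.26 CPM on Day 0 (-2.60, adjusted p = 1.56e-06). Its later rise in Sadash (1.24, adjusted p = 0.00434) was not called without Sadash Day 7 replicate 1 or 2 or Sadash Day 21 replicate 2 or 3 (adjusted p up to 0.0269).

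Of 6 members annotated to chromatin or gene silencing, 1 rose in ND7_D0 and 2 fell in ND21_D7. TraesCS1B02G118900, annotated to chromatin remodelling, measured 221, 223 and 189 CPM in Nanda on Day 7 against 107, 97.3 and 90.2 CPM on Day 0. Its log2 fold change of 1.11 (adjusted p = 3.39e-06) fell just under 1 without Nanda Day 0 replicate 3 or Sadash Day 0 replicate 1 or 3 (lowest 0.94). In Sadash the gene was at 14.9, 21.2 and 19.1 CPM on Day 7 against 22.2, 29 and 24.0 CPM on Day 0, which was not called (-0.44, adjusted p = 0.0193). Of 3 membrane lipid members 2 fell in ND7_D0 and 1 rose in ND21_D7. TraesCS1B02G135200, annotated to glycerophospholipid metabolism, measured 0.192, 0.396 and 0.181 CPM in Nanda on Day 7 against 22.7, 12.7 and 14.9 CPM on Day 0 (-5.99, adjusted p = 6.78e-08).

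Of 5 members annotated to polysaccharides and carbohydrates, 1 rose and 1 fell in each transition. Beside TraesCS1B02G136200, TraesCS1B02G083100, annotated to disaccharide metabolism, measured 3.01, 2.85 and 2.27 CPM in Nanda on Day 7 against 17.0, 16.7 and 15.9 CPM on Day 0 (log2 fold change -2.60, adjusted p = 4.86e-05), without overlap between the stages. TraesCS1B02G131000, annotated to the regulation of carbohydrate synthesis, measured 16.5, 17.8 and 15.3 CPM on Day 21 against 32.9, 39.3 and 36.8 CPM on Day 7 (-1.14, adjusted p = 0.000411). Of the 4 transport members 1 rose in each transition, the ABCB transporter in both cases, and 1 fell in ND21_D7. The faller was TraesCS1B02G128800, annotated to metal ion transport, at 5.81, 5.89 and 4.2 CPM on Day 21 against 13.5, 13.8 and 16.1 CPM on Day 7 (-1.45, adjusted p = 0.000249).

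In Sadash fewer members were called, at lower counts. The part of these low counts in the difference was not tested. From Day 0 to Day 7 (SD7_D0), 52 members rose and 55 fell, or 7.14% and 7.55%, where 16.0% of all tested genes rose and 12.0% fell (28.0% in either direction). From Day 7 to Day 21 (SD21_D7), 49 rose and 83 fell, or 6.73% and 11.4%, where 16.8% and 18.4% did (35.2% in either direction). By limma on log2(TPM + 1) the members called in SD7_D0 and SD21_D7 numbered 54 and 48, and in fits on only the 6 libraries compared 44 and 36, in place of 107 and 132. In the first transition 54 were called in both, 52 in the same direction and 2 in opposite directions, where 402 of 406 genes in the rest of chromosome 1B had the same direction. In the second transition 66 were called in both, 59 in the same direction and 7 in opposite directions, where 390 of 412 did. Across members, the log2 fold changes of the genotypes had Pearson's r of 0.47 in the first and 0.43 in the second transition, against 0.74 and 0.76 across the 2019 other genes of chromosome 1B. These are correlations across genes, which are not independent replicates. The 117 members without a Sadash count enter with a Sadash change of 0, which can lower r. The part of these and other low Sadash counts in the lower r was not tested.

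The members called in opposite directions, picked after their values were seen, included well covered and weakly covered genes. TraesCS1B02G048900 measured 69.4, 68.2 and 51.9 CPM in Nanda on Day 21 against 235, 206 and 211 CPM on Day 7 (log2 fold change -1.78, SE 0.13, adjusted p = 2.99e-09). In Sadash it measured 13.2, 16.0 and 12.0 CPM on Day 21 against 4.02, 4.22 and 4.07 CPM on Day 7 (1.72, SE 0.15, adjusted p = 2.29e-08). From Day 0 to Day 7 the gene rose in both. TraesCS1B02G019100 measured 20.4, 28.7 and 31.9 CPM in Nanda on Day 7 against 54.8, 73.5 and 73.3 CPM on Day 0 (-1.32, adjusted p = 2.5e-05), and in Sadash 14.8, 7.84 and 13.4 CPM on Day 7 against 5.85, 5.43 and 5.65 CPM on Day 0 (1.09, adjusted p = 0.000546). The rise in Sadash was not called without Sadash Day 7 replicate 1 or 3 (log2 fold change down to 0.92). TraesCS1B02G119300 measured 12.9, 13.3 and 15.7 CPM in Nanda on Day 21 against 3.90, 3.01 and 4.35 CPM on Day 7 (1.90, adjusted p = 0.00033), and in Sadash it had no count on Day 21 against 0.942, 0.0754 and 1.47 CPM on Day 7. Its larger change in Sadash came earlier, with 14.3, 19.8 and 15.8 CPM on Day 0 (log2 fold change of Day 7 over Day 0 -4.30, adjusted p = 6.8e-07), and over that step it fell in Nanda too (-1.74, adjusted p = 0.00071). None of the 3 has a description in the sources used here, and the difference between the genotypes' changes was not tested.

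Sadash kept 0.5 or more of the Nanda level for 65 members, or 8.93%, where 91.2% of the rest of chromosome 1B and 89.7% of all tested genes did. The 65 include the 4 members without a Nanda count. These were mostly weak genes in Nanda, with a median Nanda mean of 1.97 CPM against 6.06 CPM for the other 663 members. Their median Sadash mean was 2.43 CPM against 0.288 CPM for the others. Choosing by the ratio itself favours a low Nanda level and a high Sadash level, so nothing is read from these medians. In 26 of the 65 the Nanda mean was under 1 CPM, and in 8 it was 10 CPM or more. They did not form one stretch. Of the 65, 19 had an adjacent member of the same kind, in 9 runs, the longest of which held 3 genes from TraesCS1B02G062600 to TraesCS1B02G062900. At a limit of 0.25 of the Nanda level there were 158 members, at 0.75 there were 41, and 28 members had a higher mean in Sadash than in Nanda. The 10 most strongly expressed members, ranked separately in each genotype, gave 34.7% of the block's counts in Sadash and 21.9% in Nanda. The 65 gave 14.9% in Sadash and 3.89% in Nanda.

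The strongest of the 65 per transcript length was TraesCS1B02G130900, with a mean of 437 TPM in Nanda and 260 TPM in Sadash. It measured 105, 119 and 97.4 CPM in Nanda on Day 0 and 76.4, 67.5 and 54.0 CPM in Sadash, and on Day 7 it measured 151, 119 and 110 CPM in Nanda against 54.3, 54.8 and 43.1 CPM in Sadash. Stage changes were small in both, with no call. TraesCS1B02G131300, near it in order, averaged 78.1 TPM in Nanda and 44.8 TPM in Sadash. It measured 59.7, 59.9 and 58.2 CPM in Nanda on Day 21 against 169, 166 and 142 CPM on Day 7 (log2 fold change -1.42, SE 0.12, adjusted p = 1.61e-08), and in Sadash 36.4, 41.2 and 47.8 CPM against 74.3, 73.2 and 61.7 CPM (-0.74, adjusted p = 3.12e-05), which stayed under the limit of 1. TraesCS1B02G131300 was lowest on Day 21 in both genotypes, and every Nanda library exceeded every Sadash library of the same day.

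TraesCS1B02G060700 measured 75.3, 70.1 and 71.0 CPM in Nanda on Day 7 and 66.5, 63.2 and 65.8 CPM on Day 21, while in Sadash it measured 40.6, 43.7 and 57.8 CPM on Day 7 and fell to 14.1, 24.0 and 22.2 CPM on Day 21 (log2 fold change -1.26, SE 0.19, adjusted p = 1.76e-05). Its A and D copies averaged 63.4 and 66.1 CPM in Nanda and 134 and 240 CPM in Sadash on Day 7, so the homoeologs were higher in Sadash. TraesCS1B02G132600 measured 3.50, 4.18 and 4.58 CPM in Nanda on Day 21 against 10.4, 12.2 and 8.53 CPM on Day 7 (-1.35, adjusted p = 7.29e-05). In Sadash it stayed at 7.26, 7.44 and 11.4 CPM on Day 21 against 6.68, 7.54 and 4.71 CPM on Day 7 (0.47, adjusted p = 0.0828). TraesCS1B02G022800 averaged 17.9 TPM in Nanda and 15.3 TPM in Sadash, and its libraries overlapped between the genotypes on Day 7 and Day 21 but not on Day 0, when it measured 12.6, 13.8 and 8.21 CPM in Nanda and 7.48, 4.28 and 5.40 CPM in Sadash.

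At all 3 stages 4 members were called lower in Nanda, where 0.882% of all tested genes were, so these 4 of 728 are not more than that share. TraesCS1B02G005100 had no count in Nanda on Day 0, 0.128, 0.158 and 0.363 CPM on Day 7 and 0.119, 0.354 and 0.445 CPM on Day 21. In Sadash it measured 4.01, 4.00 and 3.94 CPM on Day 0 and rose to 12.4, 13.9 and 13.6 CPM on Day 7 (log2 fold change 1.74, SE 0.26, adjusted p = 3.98e-05), staying at 11.2, 11.6 and 14.3 CPM on Day 21. Every Sadash library thus stood far above every Nanda library. TraesCS1B02G128300 averaged 2.84, 2.25 and 2.05 CPM in Nanda on Day 0, Day 7 and Day 21, and 8.21, 7.55 and 5.59 CPM in Sadash. TraesCS1B02G072000 averaged 2.30, 0.591 and 0.205 CPM in Nanda and 8.40, 2.92 and 2.50 CPM in Sadash on the same days. The last of them, TraesCS1B02G100200, annotated to chromatin remodelling, averaged 0.0294 CPM in Nanda and 2.95 CPM in Sadash over 9 libraries each. TraesCS1B02G005000, next to TraesCS1B02G005100, was among the 4 members without a Nanda count and averaged 0.695 CPM in Sadash. TraesCS1B02G100200 and TraesCS1B02G005000 were picked after their values were seen.

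The A and D copies lie on other chromosomes and were not used to choose the block, so their genotype contrast was tested. Of triads with 1 copy per subgenome in the study's list, which keeps triads above a TPM limit in these samples and is shortened in the copy used, 95 had their B copy in the block, giving 189 tested A and D copies. The estimation of counts divides reads among similar copies, so the A and D values are not strictly independent of the B copy. On Day 0, 4 of the 189 were higher and 29 lower in Nanda, or 2.12% and 15.3%, where 5.44% and 5.12% of all tested genes were. The A and D copies of the other listed triads, 3794 in number, had 127 higher and 150 lower, or 3.35% and 3.95%. The median log2 fold change was -0.30 for the block copies and 0.01 for the others.

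On Day 7, 10 were higher and 11 lower in Nanda, or 5.29% and 5.82%, where 6.78% and 6.03% of all tested genes were. The copies of other listed triads had 380 higher and 56 lower, or 10.0% and 1.48%. The block copies had a median of -0.02 and the others 0.37. On Day 21, 1 was higher and 42 lower, or 0.529% and 22.2%, where 6.96% and 5.60% of all tested genes were. The copies of other listed triads had 48 higher and 488 lower, or 1.27% and 12.9%, so they too were mostly lower in Nanda. The block copies had a median of -0.52 and the others -0.40. The median of the block copies thus lay below that of the other copies on each day. The difference between the sets was not tested. In fits on log2(TPM + 1) and log2(TPM + 0.1) the Day 21 count was 24 and 25 in place of 43. Of the 189 copies, 4 were called lower in Nanda at all 3 stages, where 0.882% of all tested genes were.

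**Figure D5:**
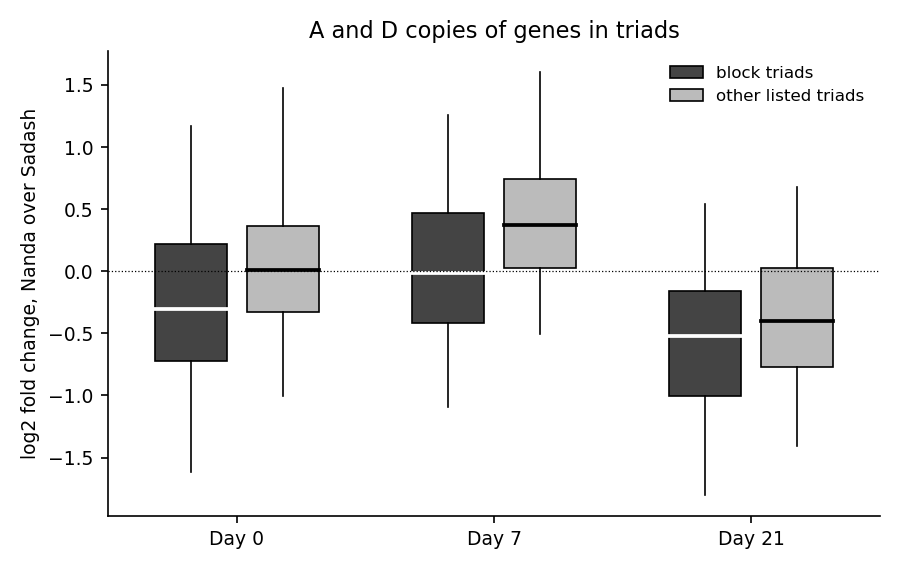
Log2 fold change of Nanda over Sadash for 189 A and D copies of genes whose B copy lies in the block (dark) and for 3794 A and D copies of the other listed triads (light). Boxes span the quartiles with the median as a line, and whiskers reach the 5th and 95th percentiles; the dark medians are -0.30, -0.02 and -0.52 and the light ones 0.01, 0.37 and -0.40 on Day 0, Day 7 and Day 21.

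Summed over each triad in TPM, the A and D copies together stood at a median of 1.28, 1.23 and 1.23 times the Nanda level in Sadash on Day 0, Day 7 and Day 21, against 1.01, 0.905 and 1.11 for the other listed triads. Whole triads, B copy included, stood at 0.947, 0.858 and 0.962, against 1.01, 0.896 and 1.11. The B copy amounted to a median of 44.5%, 47.1% and 43.8% of the A and D sum in Nanda and 5.48%, 5.38% and 5.12% in Sadash. The level of the whole triads in Sadash thus differed from that in Nanda far less than the level of the B copies. Whether reads of a B copy were placed on the A and D copies was not tested, so these totals do not show which copy made the transcripts.

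Single triads varied. The D copy of the translation gene TraesCS1B02G031500 averaged 15.0, 8.63 and 10.1 CPM in Nanda on Day 0, Day 7 and Day 21 and 63.4, 19.0 and 35.8 CPM in Sadash, and was lower in Nanda at each stage (log2 fold changes -2.08, -1.12 and -1.82, adjusted p = 8.63e-07, 0.000762 and 3.43e-06). Its A copy, at 40.4, 25.9 and 22.2 CPM in Nanda and 37.6, 19.6 and 33.0 CPM in Sadash, was called at none. For TraesCS1B02G118900 the A copy averaged 86.5 CPM in Nanda and 189 CPM in Sadash on Day 0 (-1.13, adjusted p = 3.13e-07) and 192 and 237 CPM on Day 7 (-0.30, adjusted p = 0.0339). For TraesCS1B02G138100 neither copy was called, with the D copy at 32.8 CPM in Nanda and 35.4 CPM in Sadash on Day 7. A higher homoeolog in Sadash was therefore seen in some triads and not in others.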

How the data were processed

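RNA of 18 libraries was sequenced in 6 groups of 3. Per the labels and the methods of the study, the authors used Trimmomatic 0.39 for trimming, STAR 2.7.5a for alignment to the wheat reference IWGSC v1.1, and RSEM 1.3.3 to estimate values per transcript. The deposited tables hold expected counts, which RSEM divides among similar copies, and TPM. Depth and the other values behind the comparisons follow from these files.

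Expected counts of all transcripts of a gene were added and then rounded, for high-confidence genes. Of 107892 genes, 62692 reached 1 CPM in at least 1 library and were fitted together with edgeR 4.0.16 (R 4.3.3; TMM, quasi-likelihood test, 1 factor with 6 levels), with Benjamini-Hochberg adjustment over all of them. Calls required a change of 1 or more on the log2 scale with an adjusted p below 0.01. ND7_D0 and ND21_D7 are Day 7 over Day 0 and Day 21 over Day 7 in Nanda, SD7_D0 and SD21_D7 the same in Sadash, and NS_D0, NS_D7 and NS_D21 Nanda over Sadash. The fit was also run on simulated data in which only genes above a set mean count were changed. That run does not cover the low Sadash counts, and nothing is drawn from it here. Where every library of a group had no count, a fold is a lower bound against 3 counts per library. Alternatives used limma 3.58.1 on TPM in log2 with 1 or 0.1 added, DESeq2 1.42.0, RLE size factors, other filters, a replicate block and single libraries left out. Summaries used Python 3.11.15.

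The members and lists were chosen with earlier results of these data known. Genes named are the ends of the block and the next gene, members with a description in the sources used, up to 4 members per listed group by mean TPM, the 3 members with the largest called changes per Nanda transition and direction (at least 10 CPM in the higher group, no overlap), the 6 members at 0.5 or more of the Nanda level with the highest TPM in Sadash, and the 3 highest in TPM among those lower in Nanda at all stages. Positions follow identifier order, since no genome sequence was used here.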

Additional observations from a re-analysis of the deposited data

Results flagged for a closer look

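Only members chosen to be named were checked here, so the count below is not one over the 728 members. It has no share of all tested genes beside it. Changes of 14 of these members ran in opposite directions in the genotypes. In each genotype the libraries of the days compared did not overlap, though some margins were very small at low counts. The difference between the genotypes was not tested for any of them, and members called in opposite directions were added after their values were seen. Each pair of values is the log2 fold change in Nanda and then in Sadash. TraesCS1B02G057900 and TraesCS1B02G130900 were called in neither genotype, TraesCS1B02G118900 and TraesCS1B02G134500 in Nanda only, and TraesCS1B02G031500 and TraesCS1B02G144300 in Sadash only.

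For Day 7 over Day 0, TraesCS1B02G019100 had -1.32 and 1.09, TraesCS1B02G134500, the NRPC1 subunit gene, -2.75 and 0.96, and TraesCS1B02G066400 3.28 and -4.21. TraesCS1B02G066400 measured 1.73, 3.25 and 5.35 CPM in Nanda on Day 7 against 0.291, 0.451 and 0.244 CPM on Day 0, and in Sadash 0.428, 0.226 and 0 CPM on Day 7 against 3.33, 5.00 and 3.60 CPM on Day 0. TraesCS1B02G118900, annotated to chromatin remodelling, had 1.11 and -0.44, and TraesCS1B02G057900, had 0.66 (adjusted p = 0.127) and -2.59 (adjusted p = 0.031), the second at no more than 0.286 CPM in Sadash, too few counts to resolve a ratio.

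For Day 21 over Day 7, TraesCS1B02G048900 had -1.78 and 1.72, TraesCS1B02G106500 -1.86 and 2.58, TraesCS1B02G110400 -1.08 and 1.09, TraesCS1B02G066000 3.78 and -2.61, and TraesCS1B02G150500 1.02 and -1.01. TraesCS1B02G119300 had 1.90 in Nanda and a fitted -6.64 in Sadash, where Day 7 averaged 0.831 CPM and Day 21 held no count. The translation genes TraesCS1B02G144300 and TraesCS1B02G031500 had -0.94 and 1.64 and -0.46 and 1.24, and TraesCS1B02G130900 had -0.67 and 0.34. For TraesCS1B02G150500 the A copy averaged 68.3 CPM in Nanda and 124 CPM in Sadash on Day 7, and 147 CPM in Nanda and 87.9 CPM in Sadash on Day 21, so its homoeolog differed in the same way. The calls of TraesCS1B02G150500 fell below a log2 fold change of 1 without Nanda Day 7 replicate 1 or 2 or Nanda Day 21 replicate 2 or 3 in Nanda (lowest 0.96), and without Sadash Day 7 replicate 1 or Sadash Day 21 replicate 1 or 3 in Sadash (nearest to 0, -0.70).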

How the results depend on the processing

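Of 139 called changes of named members, none turned its direction under any alternative, 63 lost the call under at least 1, and 38 lost it without at least 1 single library. Against 107 and 132 members called in SD7_D0 and SD21_D7, limma on log2(TPM + 1) called 54 and 48, and a fit on only the 6 libraries compared called 44 and 36. The A and D copies called on Day 21 numbered 24 on log2(TPM + 1) and 25 on log2(TPM + 0.1), against 43. As a share of summed TPM, the block took 1.21%, 1.23% and 1.3% in Nanda on the days in order. Without the 10 members with the highest mean CPM over all 18 libraries, the block took 0.911%, 1.03% and 1.05% of counts in Nanda and 0.171%, 0.164% and 0.152% in Sadash. At 0.25 or more of the Nanda level there were 158 members, at 0.75 or more 41, and at 0.5 or more with a Nanda mean of at least 1 CPM 39. A Sadash mean below 0.1 CPM held for 239 members, and 63 members without a Sadash count had a Nanda mean of at least 1 CPM. The highest window ratio was 0.273 by summed CPM and 0.132 by median.

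Leaving out single libraries gave 167 to 236 calls in ND7_D0, 188 to 269 in ND21_D7, 76 to 127 in SD7_D0 and 101 to 136 in SD21_D7, 467 to 538, 494 to 524 and 504 to 580 members between genotypes, and 26 to 36, 17 to 25 and 39 to 47 copies, each on the days in order. With the replicate number as a block, 188, 210, 96 and 118 members were called in ND7_D0, ND21_D7, SD7_D0 and SD21_D7, 497, 503 and 536 between genotypes, and 32, 22 and 42 copies. The numbers were not taken to pair libraries. The deviations of same-numbered libraries, not their expression values, correlated at -0.297 to 0.414, and all pairs exceeded 0.1 in only 1 of 7 contrasts. Values near 3 counts, 0.113 to 0.428 CPM in a library, resolve no ratio.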
